A study of Rattus norvegicus with 8 samples.

Results

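The RNA of resident macrophage markers and scavenger receptors was examined in rat Achilles tendons, in which 10 genes were chosen by name: Csf1r, Cd68, Adgre1, Lyz2, Cd163, Mrc1, Lyve1, C1qa, C1qb and C1qc. All 10 had a row among the 15590 genes of the table, and all 10 were among the 13863 genes tested. Polyadenylated RNA of the right Achilles tendon was sequenced from male wild-type SD (Sprague-Dawley) rats, with 4 libraries from tendons collected at once after rats had run uphill on a treadmill for 1 h (0 h p.r., for post-running), and 4 from control rats that did not run (NC, naïve control). The runners were kept moving with airflow and a mild electric stimulus. The study's methods state that the control animals of the treadmill experiment were killed together with a later post-run group, so running and the time of death cannot be told apart here. The labels do not say that each library came from a separate animal, and p-values measure the spread between these 8 libraries.

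Resident macrophages settle in connective tissue, depend on signalling through the CSF1 receptor and take up dead cells, matrix fragments and haemoglobin. Scavenger and endocytic receptors on their surface carry this cargo to the lysosome, and the complement protein C1q, which macrophages secrete, binds antibodies and cell debris. In tendon such cells lie among the collagen fibres and along the vessels of the surrounding sheath, where LYVE1 also marks lymphatic endothelium.

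The 10 markers were spread over a wide range of levels, and their differences after running lay on both sides of 0. Cd163, the scavenger receptor for haemoglobin bound to haptoglobin, had the lowest level after running relative to NC, at 0.471-fold, and Mrc1, the mannose receptor, followed at 0.657-fold. The other 8 lay between 0.861-fold and 1.21-fold. In limma, a linear model for each gene with variances moderated across genes, no marker passed both thresholds, a fold change of at least 2 and an adjusted p below 0.05, which 2.7% of all tested genes passed. Within a library, however, the ratio of Cd163 to 8 of the 9 other markers, all but Mrc1, did not overlap between the groups. Its ratio to a gene did not overlap for 23.2% of the other tested genes without a 0. Scaling all genes to Csf1r or to the C1q chains left Cd163 with an adjusted p of 0.558 or 0.178 in limma. In the Csf1r scaling the error came largely from the variance of other genes. These values are described after the single genes.

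The bases before the transcription start are shown for 4 markers, Cd163 and Mrc1 because they were the lowest after running, and Csf1r and Cd68 as general markers for comparison. They are 250 bases from RefSeq on build GRCr8, 5′ to 3′ on the strand of the gene and ending at the base before the annotated start. A promoter entry was matched for 9 of the 10 markers, all but C1qc. Capitals mark the motif GAGGAA, a core that the macrophage transcription factor PU.1 can bind, or its reverse complement TTCCTC, and, in Cd68, the AP-1 motif TGANTCA.
Cd163, chr4:158770524-158770773, plus strand: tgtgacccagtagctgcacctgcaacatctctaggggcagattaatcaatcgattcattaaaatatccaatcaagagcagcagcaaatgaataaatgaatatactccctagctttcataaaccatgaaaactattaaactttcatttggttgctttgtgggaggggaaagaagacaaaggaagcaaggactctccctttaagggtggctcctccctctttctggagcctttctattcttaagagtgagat
Mrc1, chr17:82157475-82157724, plus strand: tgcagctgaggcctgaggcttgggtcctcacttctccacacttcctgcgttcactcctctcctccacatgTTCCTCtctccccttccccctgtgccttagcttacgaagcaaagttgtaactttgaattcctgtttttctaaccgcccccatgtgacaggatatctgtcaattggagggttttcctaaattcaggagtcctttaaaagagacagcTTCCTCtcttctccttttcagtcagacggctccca
Csf1r, chr18:56834129-56834378, plus strand: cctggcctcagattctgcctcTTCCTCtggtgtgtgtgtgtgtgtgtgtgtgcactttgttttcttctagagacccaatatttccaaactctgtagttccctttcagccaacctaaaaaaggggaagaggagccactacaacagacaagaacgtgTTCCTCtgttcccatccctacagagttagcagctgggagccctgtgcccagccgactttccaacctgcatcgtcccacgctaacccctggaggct
Cd68, chr10:54882442-54882691, minus strand: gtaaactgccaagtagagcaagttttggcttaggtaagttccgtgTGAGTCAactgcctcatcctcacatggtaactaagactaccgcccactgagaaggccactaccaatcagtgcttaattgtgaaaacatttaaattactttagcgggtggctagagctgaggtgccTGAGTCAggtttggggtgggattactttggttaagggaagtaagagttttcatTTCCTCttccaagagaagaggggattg

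Both motifs were searched on both strands in windows of 300 bases, reaching 50 bases past the start. GAGGAA occurred in 6 of the 9 windows of the markers and in 27.6% of all 33469 promoter windows. Csf1r, Mrc1, Cd68 and C1qb held it at 2 places each, 1 of those of Cd68 lying past the printed bases, and Adgre1 and Lyz2 held it at 1 place each. The windows of Cd163, Lyve1 and C1qa did not contain these letters. TGANTCA, whose reverse complement has the same form, occurred at 2 places in Cd68, starting at positions -205 and -80 from the start, and in 7.33% of all windows. It was in none of the other 8 windows of the markers. The motifs did not overlap each other in Cd68. These matches describe the letters of the windows only.

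The libraries held 10660131 to 17464752 reads, recovered as whole numbers from the steps of the deposited values, and the markers held between 59 reads, for Adgre1 in 0 h p.r. replicate 3, and 15822 reads, for Lyz2 in 0 h p.r. replicate 4. Mitochondrial genes took 31.1% of the summed FPKM (fragments per kilobase of gene, scaled to depth) in NC replicate 2 and 16.3% to 21.9% in the other 7 libraries. Tendon genes were present in all libraries, with a mean Tnmd level of 224 FPKM in NC and 177 FPKM after running.

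Levels were compared between markers in FPKM, which is per gene length. In NC the order of the mean FPKM was Lyz2, C1qc, C1qa, C1qb, Lyve1, Csf1r, Mrc1, Cd163, Cd68 and Adgre1. The library ranges of neighbours in this order did not overlap between Lyz2 and C1qc, between Lyve1 and Csf1r, between Cd163 and Cd68 or between Cd68 and Adgre1, and overlapped between the other neighbours. After running Cd68 and Cd163 changed places, and the ranges of neighbours overlapped at each step except that from Lyz2 to C1qc. Lyz2 stood at the 98.5th percentile of the mean FPKM of the tested genes in NC, C1qc at the 95.6th and Adgre1 at the 23.6th. Cd163 stood at the 67.8th percentile in NC and at the 46.1st after running, and Mrc1 at the 71.8th and the 59.5th.

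**Figure D1:**
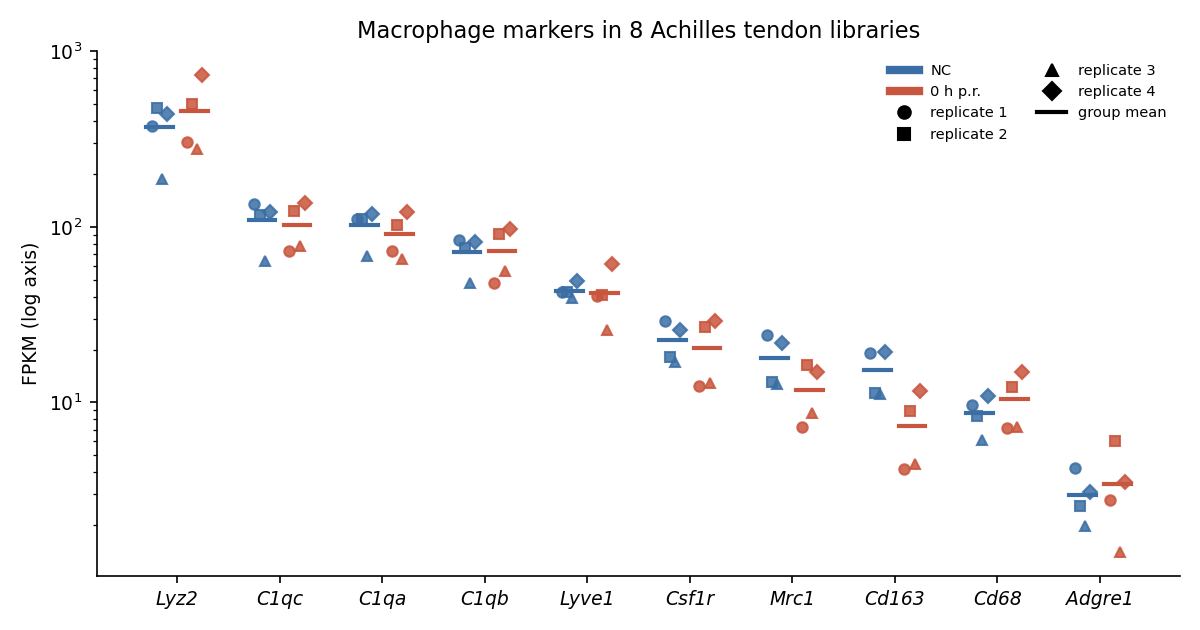
FPKM of the 10 markers on a log axis, with 1 point per library (4 NC, 4 0 h p.r.; the symbol gives the replicate number) and a bar at each group mean. Lyz2 lies highest and Adgre1 lowest, the groups overlap for every marker, and only for Cd163 do 3 of 4 libraries after running lie below all NC libraries.

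Among the general macrophage markers, Csf1r encodes the receptor for the growth factors CSF1 and IL-34. Its level was 29.2, 18.1, 17.1 and 25.7 FPKM in NC and 12.5, 26.7, 12.8 and 29.2 FPKM at 0 h p.r. The 0 h p.r. libraries fell into a low pair, replicates 1 and 3, and a high pair, replicates 2 and 4, and the groups overlapped. The mean was 22.5 ± 5.92 FPKM (SD, n = 4) in NC and 20.3 ± 8.90 FPKM (SD, n = 4) after running. The log2 fold change was -0.22, with a 95% confidence interval from -0.93 to 0.49 and an adjusted p of 0.750 in limma.

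Cd68, a glycoprotein of macrophage lysosomes, was measured at 9.61, 8.38, 6.09 and 10.8 FPKM in NC and at 7.15, 12.3, 7.23 and 15.0 FPKM at 0 h p.r. The 2 highest libraries were 0 h p.r. replicates 4 and 2, and the lowest was NC replicate 3. In limma the log2 fold change was 0.20 (95% confidence interval -0.40 to 0.80), with an adjusted p of 0.724.

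Adgre1, which encodes the F4/80 antigen of rodent macrophages, had 4.22, 2.56, 1.98 and 3.08 FPKM in NC and 2.76, 6.05, 1.41 and 3.54 FPKM at 0 h p.r. Both the lowest and the highest library belonged to 0 h p.r., which spanned 4.30-fold. Its log2 fold change was 0.09 (95% confidence interval -0.72 to 0.90, adjusted p 0.922, limma).

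Lyz2, the lysozyme of myeloid cells, had 378, 473, 187 and 439 FPKM in NC and 304, 503, 277 and 736 FPKM at 0 h p.r. The groups overlapped, with NC replicate 3 lowest and 0 h p.r. replicate 4 highest. Its log2 fold change was 0.27 (95% confidence interval -0.60 to 1.14, adjusted p 0.743, limma). Lysozyme genes are close copies of each other, and how reads shared between copies were counted is not given in the sources used here.

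Of the endocytic receptors, Cd163 had 19.0, 11.4, 11.2 and 19.3 FPKM in NC and 4.15, 8.95, 4.43 and 11.7 FPKM at 0 h p.r. In 3 of the 4 post-run libraries the level was below all NC libraries, and 0 h p.r. replicate 4 lay just above NC replicates 2 and 3. The mean was 15.2 ± 4.57 FPKM (SD, n = 4) in NC and 7.30 ± 3.64 FPKM (SD, n = 4) after running. The log2 fold change was -1.09 with a standard error of 0.34 and a 95% confidence interval from -1.86 to -0.32, which is 0.276-fold to 0.803-fold. The unadjusted p was 0.0110 and the adjusted p 0.0982 in limma, and the exact permutation test (two-sided, 70 ways to divide the 8 libraries) gave p = 0.0857. Cd163 therefore did not pass at the adjusted p. Without 0 h p.r. replicate 4 the log2 fold change was -1.34 and the adjusted p 0.0375, and with limma's array weights they were -1.16 and 0.0382, so both thresholds were passed in these 2 fits.

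Mrc1, which takes up mannose-bearing glycoproteins and collagen fragments, had 24.2, 13.02, 12.7 and 21.7 FPKM in NC and 7.23, 16.2, 8.72 and 14.8 FPKM at 0 h p.r. Replicates 1 and 3 after running were below all NC libraries, while replicates 2 and 4 lay within the NC range. The log2 fold change was -0.61 (95% confidence interval -1.30 to 0.08), with an adjusted p of 0.282 in limma and p = 0.171 in the exact permutation test.

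Lyve1, the hyaluronan receptor of lymphatic endothelium and of macrophages along vessels, had 42.3, 42.5, 39.2 and 49.1 FPKM in NC and 40.4, 41.1, 25.9 and 61.0 FPKM at 0 h p.r. It was the steadiest marker in NC, where the highest library was 1.25 times the lowest. After running it held both the lowest and the highest value. The log2 fold change was -0.10 (95% confidence interval -0.61 to 0.41, adjusted p 0.858, limma).

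C1qa, C1qb and C1qc encode the 3 chains of C1q and are neighbours in the RefSeq annotation of GRCr8. C1qa had 110, 110, 68.1 and 118 FPKM in NC and 72.7, 102, 65.7 and 121 FPKM at 0 h p.r. C1qb had 83.9, 75.8, 47.8 and 81.7 FPKM in NC and 47.6, 91.2, 56.2 and 97.4 FPKM at 0 h p.r. C1qc had 136, 116, 63.6 and 122 FPKM in NC and 73.1, 124, 77.2 and 137 FPKM at 0 h p.r. For all 3 chains NC replicate 3 was far below the other NC libraries, 0 h p.r. replicates 1 and 3 were low, and the groups overlapped. The log2 fold changes were -0.18 for C1qa, -0.02 for C1qb and -0.09 for C1qc, with adjusted p of 0.725, 0.984 and 0.903 in limma. The 95% confidence intervals reached from -0.74 to 0.60 over the 3 chains, so a change of 2-fold in either direction lay outside them. C1qa over C1qb was 1.32 to 1.45 in NC and 1.12 to 1.53 after running, where replicates 2, 3 and 4 lay below the NC range and replicate 1 above it. C1qc over C1qb was 1.33 to 1.62 in NC and 1.36 to 1.54 after running.

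Read as a group, 0 of the 10 markers passed both thresholds, where 374 of the 13863 tested genes did (2.7%). At the adjusted p alone 0 of 10 passed, against 5.72% of the tested genes, and at an unadjusted p under 0.05 1 of 10 passed, against 22.6% (11.2% lower after running). The same numbers of markers, 0, 0 and 1, were found with voom on the recovered reads, where 2.99%, 5.76% and 22.4% of the tested genes passed. The FPKM of the groups overlapped for all 10, whereas they did not overlap for 15.6% of the tested genes. The median log2 fold change of the 10 was -0.09, with 7 below 0, beside -0.00 over all tested genes. In bulk tissue, fewer cells of a type and less RNA per cell cannot be told apart.

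Much of the spread of the markers was shared from library to library within the groups. With each group mean taken off, the 10 markers were mostly high together in NC replicates 1 and 4 and in 0 h p.r. replicates 2 and 4, and low together in NC replicate 3 and in 0 h p.r. replicates 1 and 3. The geometric mean of the 10 was 40.2, 32.0, 23.2 and 39.5 FPKM in NC and 21.7, 38.3, 20.0 and 42.5 FPKM at 0 h p.r., so each group held libraries at both levels. Each of the 10 markers was lowest within NC in replicate 3. The summed FPKM of skeletal muscle genes was 4923, 6553, 6776 and 4672 in NC and 28427, 4954, 13281 and 898 at 0 h p.r., so it was higher in 0 h p.r. replicates 1 and 3, where the markers were low, than in replicates 2 and 4. In NC it was highest in replicate 3, with replicate 2 close to it. The slow-fibre genes Myh7 and Tnnt1 did not follow this order and were lowest in 0 h p.r. replicate 3, at 0.514 and 1.52 FPKM. The part of muscle RNA in the shared pattern was not tested. Over the 8 libraries, Pearson's r of these deviations lay between 0.513 and 0.985 for the 45 pairs of markers, with a median of 0.847. The closest pair was Csf1r and Cd163, whose r stayed between 0.980 and 0.992 when each library was left out in turn. Lyve1 followed the others least, and its r was 0.513 with Mrc1. These correlations describe 8 points that share library depth and scaling within each library.

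**Figure D2:**
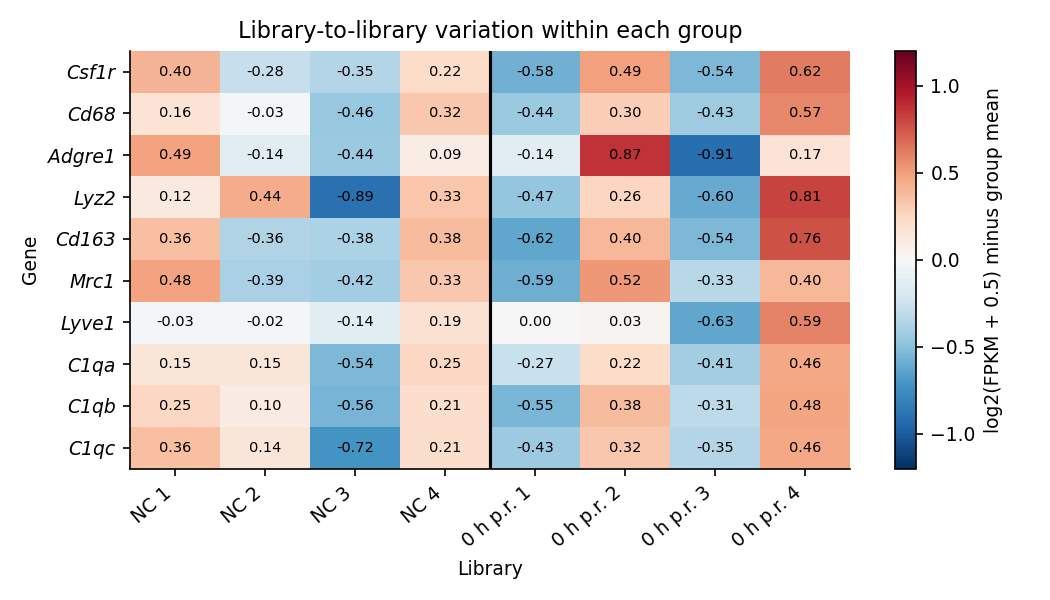
Deviation of log2(FPKM + 0.5) from the group mean for each marker (rows) and library (columns; the line separates 4 NC from 4 0 h p.r. libraries), with the value in each cell. All 10 markers lie below the group mean in NC replicate 3 and 0 h p.r. replicate 3 and above it in NC replicate 4 and 0 h p.r. replicates 2 and 4, and in 0 h p.r. replicate 1 all but Lyve1 lie below it.

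Because spread that 2 genes share cancels in their ratio, each marker was also set against Csf1r in the same library, as a description without a test. The ratio of Cd163 to Csf1r was 0.651, 0.630, 0.654 and 0.751 in NC and 0.333, 0.335, 0.346 and 0.399 at 0 h p.r. All 4 post-run libraries, with high or low macrophage levels, lay far below all 4 NC libraries. The mean ratio was 0.671 ± 0.0543 (SD, n = 4) in NC and 0.353 ± 0.0312 (SD, n = 4) after running, which is 0.526-fold. The ratio of Mrc1 to Csf1r was 0.828, 0.721, 0.746 and 0.843 in NC and 0.580, 0.607, 0.681 and 0.507 at 0 h p.r., again without overlap and with a log2 difference of -0.41. For the other 7 markers the ratios to Csf1r overlapped between the groups. The 2 of 9 ratios without overlap stand beside 3.56% of the tested genes whose ratio to Csf1r did not overlap, 1.15% being lower after running. In plain FPKM the share without overlap was 15.6%. Cd163 and Mrc1 followed Csf1r within the groups at r = 0.985 and 0.962, so a share over all genes is not a like baseline for them.

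Cd163 was also low against the other markers. Its ratio to each of Cd68, Adgre1, Lyz2, Lyve1, C1qa, C1qb and C1qc did not overlap between the groups, so that with Csf1r this held for 8 of 9. The ratio of Cd163 to a gene did not overlap for 23.2% of the 13718 other tested genes without a 0, and the 9 ratios share the values of Cd163 itself. Against Lyz2 the geometric mean of the ratio was 0.373-fold after running, and against C1qa 0.511-fold. The exception was Mrc1, where the highest post-run ratio, 0.787 in replicate 4, met the lowest NC ratio, 0.787 in replicate 1. Set against Ptprc, which encodes the leucocyte surface protein CD45, the ratio of Cd163 was 5.63 to 6.59 in NC and 2.21 to 4.06 after running. It was the only 1 of the 10 markers without overlap, beside 3.75% of the tested genes, 1.39% being lower after running. This share too is over all genes, whether or not they follow Ptprc. The ratios to markers other than Csf1r, apart from those among the C1q chains, were chosen after seeing the data.

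**Figure D3:**
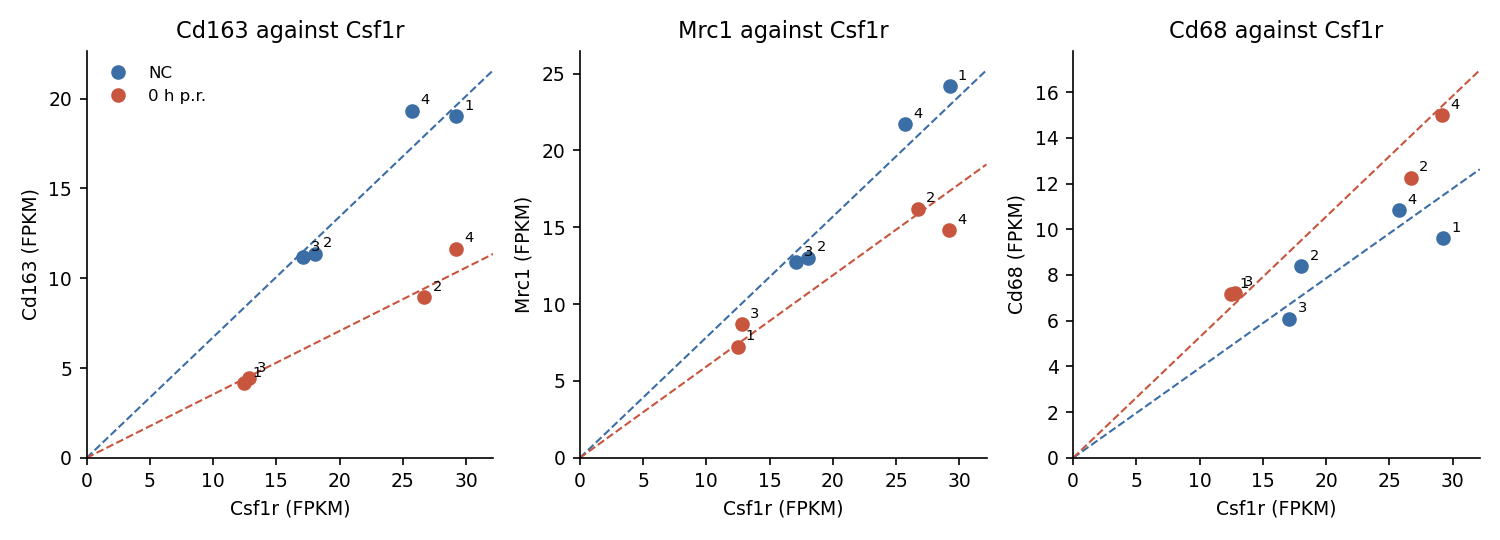
FPKM of Cd163, Mrc1 and Cd68 against FPKM of Csf1r, with 1 point per library labelled by replicate number and dashed lines through 0 with the mean ratio of each group. For Cd163 the 4 NC libraries (ratios 0.630 to 0.751) and the 4 post-run libraries (0.333 to 0.399) follow separate lines over the whole range of Csf1r, for Mrc1 the lines are closer, and for Cd68 the ratios overlap.

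A test of the same point was added after the data were seen, by fitting all 13863 genes in limma with log2 Csf1r of the library as a covariate. The ratios in the same 8 libraries prompted it, so its p-value restates them and is not separate evidence. Cd163 then had a log2 fold change of -0.85 (95% confidence interval -1.12 to -0.58) and an adjusted p of 0.00870, where 4.59% of the tested genes had an adjusted p under 0.05. Its fold change of 0.554 did not reach the 2-fold threshold. When each of the 8 libraries was left out in turn, the log2 fold change stayed between -0.92 and -0.78, and the adjusted p was under 0.05 in 7 of these fits and 0.0587 without 0 h p.r. replicate 2. Mrc1 had a log2 fold change of -0.40 with an adjusted p of 0.117, and Cd68 had 0.37 with an adjusted p of 0.160.

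Other covariates, also added after the data were seen, gave Cd163 similar values in limma. With the mean of the C1q chains the log2 fold change was -0.98 and the adjusted p 0.0307 (4.99% of the tested genes under 0.05). With Ptprc they were -0.95 and 0.0289 (3.84%). The Ptprc fit depended on single libraries: leaving out NC replicate 1, 2, 3 or 4 gave an adjusted p of 0.0879, 0.0561, 0.0911 or 0.0545. Leaving out 0 h p.r. replicate 2 gave 0.152, and leaving out each of the other 3 gave a value under 0.05. No other marker had an adjusted p under 0.05 in these 3 fits. Scaling all genes of a library to its Csf1r level in place of the covariate gave Cd163 a log2 fold change of -0.88 with an adjusted p of 0.558, and scaling to the C1q chains gave -1.003 with 0.178. The first of these scalings moved the median log2 fold change of all genes to 0.21.

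**Figure D4:**
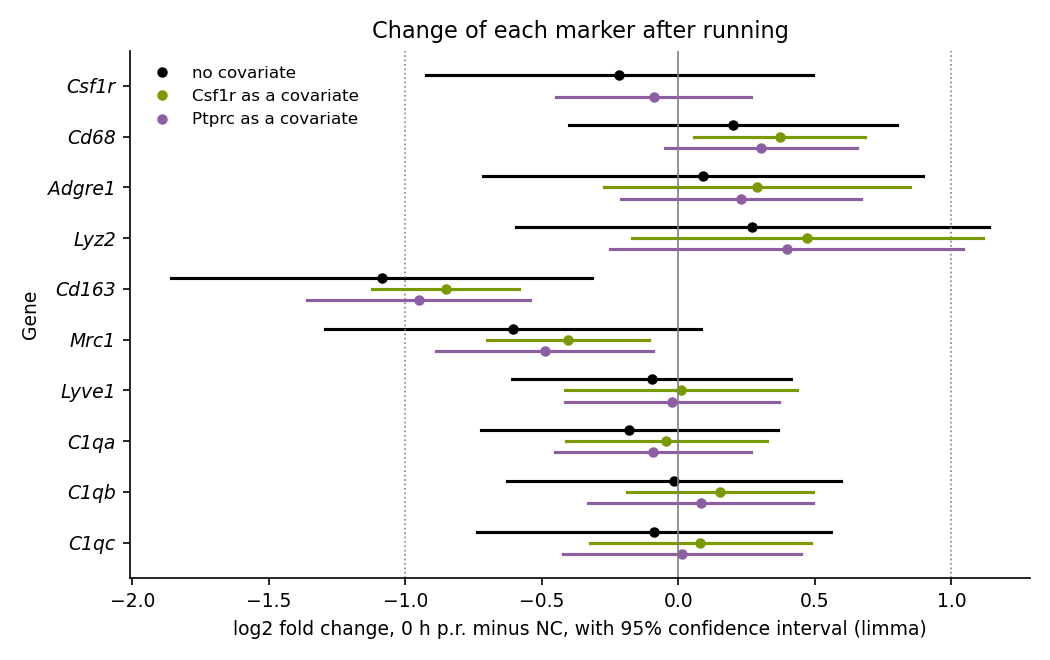
Log2 fold change at 0 h p.r. against NC for each marker, with its 95% confidence interval from limma, without a covariate (black), with Csf1r as a covariate (green; not shown for Csf1r itself) and with Ptprc as a covariate (purple); dotted lines mark a 2-fold change. The interval of Cd163 lies below 0 in all 3 fits and is narrowest with Csf1r, that of Mrc1 lies below 0 only with a covariate and without passing the adjusted p, that of Cd68 lies above 0 with Csf1r, also without passing, and those of the other markers include 0.

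Genes outside the 10 were ranked by how closely they followed the mean z-score of the markers over the 8 libraries, after the group means were taken off. The closest was Hvcn1, a proton channel of phagocytes, at r = 0.982. Next came the small nucleolar RNA RF00070, the growth factor gene Gdf10, Lgmn, a protease of the lysosome, the ubiquitin ligase gene Rnf26, Nfam1, a receptor of immune cells, AABR07062183.1, and Arhgap45 at r = 0.971. Of the tested genes 0.563% had an r of at least 0.9, and the median r was 0.03. None of these 8 genes had an adjusted p under 0.05 in limma. Arhgap45 had 3.75 FPKM on average in NC and 2.24 FPKM after running, with a log2 fold change of -0.69 and an adjusted p of 0.179.

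Lists of related genes were set beside the 10 markers. Of 19 tested other resident macrophage genes, 0 passed both thresholds and the median log2 fold change was 0.02. Of these genes 11 were above 0 and 8 below. The largest differences in this list were those of Vsig4, a complement receptor of macrophages, at 1.35 with an adjusted p of 0.537, and of Trem2, a lipid-sensing receptor, at 0.81 with an adjusted p of 0.207. Vsig4 ranged from 0.0715 to 13.7 FPKM within NC alone. The lowest gene of the list was Clec10a, at -0.73 with an adjusted p of 0.151 in limma, named after its value was seen. Of 14 tested other scavenger receptors, 0 passed and the median was 0.00. Scara5, a ferritin receptor, had a log2 fold change of -0.81 (adjusted p 0.106) and Scara3 one of 0.62 (adjusted p 0.175).

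The 18 tested lysosome and phagosome genes had 0 past both thresholds and a median log2 fold change of -0.02. Lipa, the acid lipase of the lysosome, was at -0.47 with an adjusted p of 0.0927, and Ctsz, a cathepsin, at -0.28 with 0.375. Of the 12 tested partners, substrates and regulators of C1, 0 passed and the median was -0.10. Masp1, a protease of the lectin pathway, had the largest value, 1.04 with an adjusted p of 0.0856, and C4b, a complement component cleaved by C1, was at -0.71 with 0.257. Among 10 pan-leucocyte genes 0 passed, 9 were below 0 and the median was -0.23. Cd37 was at -0.45 (adjusted p 0.381) and Arhgdib at -0.41 (adjusted p 0.242).

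Other lists held genes past both thresholds. Of 15 tested CSF1 receptor ligands, signalling genes and macrophage transcription factors, 3 passed both thresholds upwards and 0 downwards, with a list median of 0.05, beside 1.8% of the tested genes higher and 0.894% lower. Csf2rb, the shared signalling chain of the GM-CSF and IL-3 receptors, rose by 2.06 on the log2 scale (adjusted p 0.0232), Cebpb by 1.57 (adjusted p 0.000299) and Runx1 by 1.21 (adjusted p 0.0244). Cebpb and Runx1 encode transcription factors that many other cell types use too. Cebpb passed in all 8 fits that lacked a library, with an adjusted p of at most 0.0031. Csf2rb lost its call without NC replicate 1, 2 or 3 or 0 h p.r. replicate 1 or 2 (adjusted p up to 0.0716), and Runx1 without NC replicate 1 or 2 or 0 h p.r. replicate 1, 2 or 3 (up to 0.0827). The ligand genes Csf1 and Il34 were at 0.39 (adjusted p 0.199) and -0.68 (adjusted p 0.0671). Nr1h3, which encodes the sterol-sensing receptor LXRα of macrophages and adipocytes, was at -0.83 with an adjusted p of 0.0374 and a fold change under 2. Cebpa, a factor gene of myeloid cells and adipocytes, was at -1.53 with an adjusted p of 0.0538, without overlap between the groups. Spi1, which encodes PU.1, was at 0.13 with an adjusted p of 0.828. These 5 genes were named after their values were seen.

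For the 12 tested haem and iron genes, the list closest to the cargo of CD163, the median log2 fold change was -0.07. In this list 1 gene rose past both thresholds, beside 1.8% of all tested genes. This was Hmox1, which encodes the haem-degrading enzyme haem oxygenase 1. Its level was 13.2, 18.5, 13.01 and 11.5 FPKM in NC and 82.8, 123, 100 and 25.6 FPKM at 0 h p.r., so it rose in all 4 post-run libraries above the NC range, least in replicate 4. This was a log2 fold change of 2.33 with an adjusted p of 0.0192. Without NC replicate 1 or 3 or 0 h p.r. replicate 1, 2 or 3 its adjusted p was above 0.05, at most 0.0624. Among the post-run libraries, replicate 4 had the least Hmox1 and the most Cd163, while replicate 2 had the most Hmox1 and the second highest Cd163. Flvcr1, a haem exporter, was at 0.57 with an adjusted p of 0.164.

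Of 7 tested monocyte and inflammatory macrophage genes, 2 rose past both thresholds, beside 1.8% of all tested genes, and the list median was 0.74. Il1b, an inflammatory cytokine gene, went from 0.725, 0.868, 0.390 and 0.337 FPKM in NC to 5.44, 8.41, 4.30 and 6.90 FPKM at 0 h p.r. Its log2 fold change was 2.64 with an adjusted p of 0.000886. Only NC replicates 1 and 2 and the post-run libraries reached 0.5 FPKM, so Il1b met the filter mainly through the post-run group. Thbs1, a matrix protein gene that fibroblasts and platelets also use, rose by 1.59 (adjusted p 0.0159). Leaving out a library never cost Il1b its call, whereas Thbs1 lost it when 0 h p.r. replicate 2 or NC replicate 1 was absent (adjusted p up to 0.0567). The groups did not overlap for these 2 genes, while the general macrophage markers did.

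**Figure D5:**
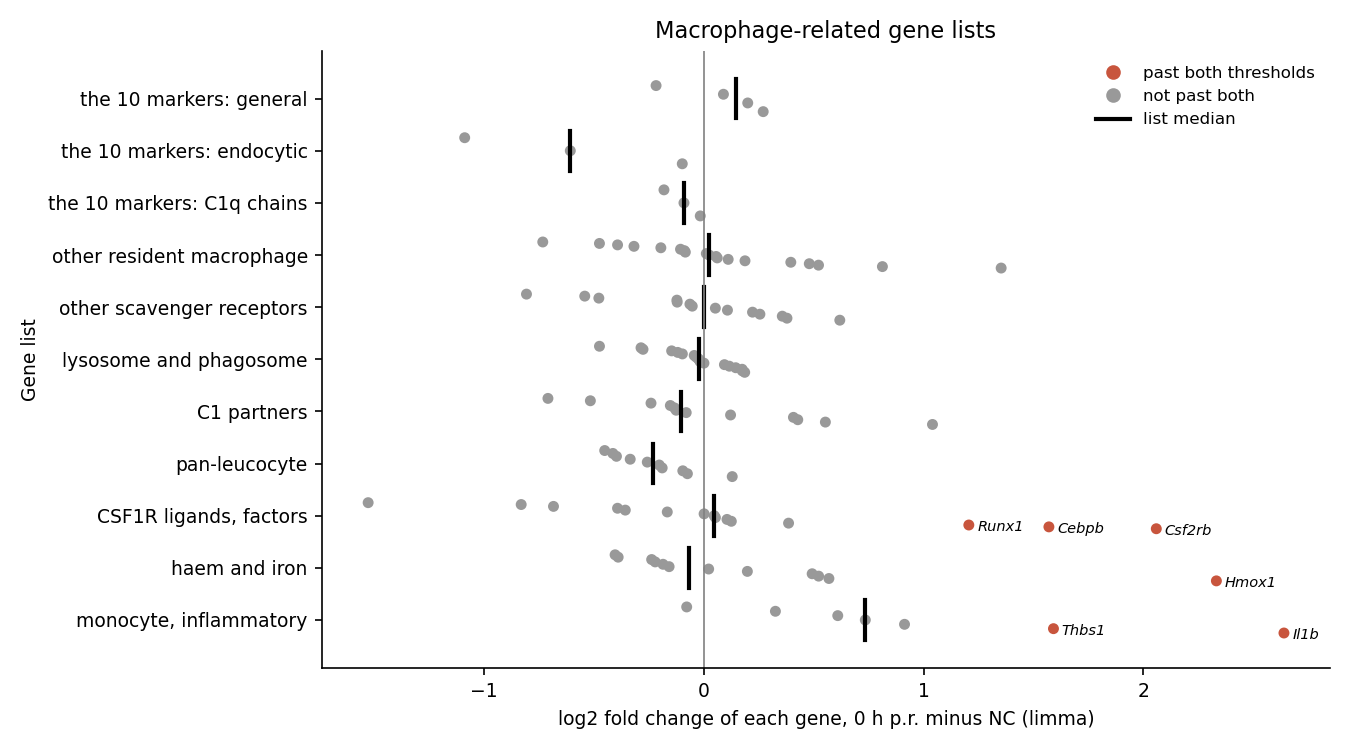
Log2 fold change at 0 h p.r. against NC (limma) of each tested gene in the 3 groups of markers and in 8 lists of related genes, with red points for genes past both thresholds and a black bar at the list median. The markers, other resident macrophage genes, scavenger receptors, lysosome genes, C1 partners and pan-leucocyte genes hold no red point, and 6 genes of the last 3 lists lie above 1.

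Markers of other cell types were measured beside these results. The adipocyte list differed most: 6 of 9 tested genes fell past both thresholds, beside 0.894% of all tested genes. Its summed level was 3223 to 6508 FPKM in NC and 1099 to 2370 FPKM after running, with no gene at 0. Retn was the only 1 of the 6 that passed in all 8 fits lacking a library, and each of the others lost its call in at least 4 of them. The difference in Cd163 and that in adipocyte RNA have the same direction between the groups and cannot be told apart by this design. Of the 8 tested skeletal muscle genes 0 passed both thresholds. Summed genes of lymphatic endothelium, which expresses Lyve1 too, were 254 to 387 FPKM in NC and 204 to 404 FPKM after running, and 0 of 7 passed. Summed blood endothelium genes were 484 to 555 FPKM and 432 to 523 FPKM, with 0 of 7 past both thresholds.

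Markers of other blood cells were measured in the same way. Of the neutrophil list 3 genes were tested, and S100a9 and Mpo passed both thresholds. S100a9 rose from 0.362 to 1.49 FPKM on average, and Mpo was at 1.88 FPKM in NC and 0.339 FPKM after running. Of all tested genes 1.8% were higher and 0.894% lower past both thresholds. The summed level of the list was 9.31 to 15.6 FPKM in NC and 6.29 to 15.96 FPKM after running. S100a9 lost its call when 0 h p.r. replicate 1, 2 or 3 or NC replicate 3 was absent (adjusted p up to 0.0720), and Mpo kept its call in 2 of the 4 fits lacking a library in which it was tested (adjusted p up to 0.0516). Mpo met the filter of 0.5 FPKM in 4 libraries through NC alone, since every post-run library was below it, so its call is tied to the filter. S100a9 was above 0.5 FPKM in every post-run library but in NC only in replicate 1, at 0.746 FPKM, so it met the filter mainly through the post-run group. Of 8 tested dendritic cell genes 1 rose past both thresholds, beside 1.8% of all tested genes. This was Cd83, an activation marker, which rose by 1.502 on the log2 scale with an adjusted p of 0.00496 in limma. Batf3 was at 0.84 with an adjusted p of 0.205. The dendritic cell list had 4 genes above and 4 below 0 and a median of -0.07. For T cells 2 genes were tested and for B cells 1, with 0 past both thresholds. The T cell genes were Cd4 and Lck, and the Cd3 genes had no row. Cd4 had 21.3, 14.1, 13.1 and 24.8 FPKM in NC and 13.1, 21.6, 11.8 and 24.8 FPKM at 0 h p.r. Its libraries stood in much the same order as for Csf1r, so this list cannot be read as T cells alone. Of 5 tested mast cell genes and 2 tested osteoclast genes 0 passed both thresholds, with medians of 0.02 and -0.28. Kit was at -0.88 with an adjusted p of 0.0187, while 3 of the 5 mast cell genes were above 0. Summed erythroid genes were 340.2 to 1082 FPKM in NC and 288 to 873 FPKM after running, with 0 of 4 past both thresholds. The part of these cell types in the level of Cd163 was not tested.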

How the data were processed

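As the study's methods state, the authors aligned stranded polyA libraries with HISAT2 2.1.0 to Rnor_6.0, counted reads per gene with featureCounts 1.6.3 and used DESeq2 1.30.1. The deposited table holds FPKM per gene and library, with a further scaling between libraries. Its columns of the authors' fold changes and p-values were not used. Whole reads were recovered from the FPKM steps for 15589 of 15590 genes (99.99%, tolerance 0.001); such depths cover counting error only. Genes with at least 0.5 FPKM in at least 4 of 8 libraries were tested on log2(FPKM + 0.5) with limma 3.58.1 in R 4.3.3 (lmFit, eBayes with trend), two-sided, with Benjamini-Hochberg adjustment over 13863 genes. Fold changes on this scale understate changes of low genes. Scripts were tested on simulated data. Ratios, summed lists, exact permutation tests and motif searches were computed in Python 3.11.15. The markers and lists were chosen with earlier results of these data known. Outside the 10 markers, the rule for naming took the genes past both thresholds and the 2 with the largest change in each list, plus the 8 most like the markers; for lists of other cell types not every such gene is printed. Csf1, Il34, Nr1h3, Spi1, Cebpa, Clec10a, Ptprc and Tnmd fall outside the rule. Symbols with 2 rows were used once. Alternatives comprised other pseudocounts, filters, scalings, array weights, voom, a replicate block and leaving out each library.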

Additional observations from a re-analysis of the deposited data

Results flagged for a closer look

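C1qa in NC had a library far from the others: 68.1 FPKM in replicate 3 against 110 to 118 FPKM in the other 3, a gap that exceeds Dixon's 95% critical value for 4 samples. This was 1 of 38 groups screened, and chance gives about 1 in 20. All 10 markers were lowest within NC in this library, and the other 9 did not pass that value.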

How the results depend on the processing

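Cd163 stayed negative in all 25 alternatives, from -1.34 to -0.85 on the log2 scale, and Mrc1 from -0.78 to -0.39. Of the other markers, Csf1r kept its sign in all 23 and Cd68 in all 25. None of the 10 passed both thresholds, except Cd163 (1 marker) with array weights or without 0 h p.r. replicate 4, so the range when leaving out a library was 0 to 1. With Ptprc as a covariate Cd163 also passed both without 0 h p.r. replicate 3 (-1.05, adjusted p 0.0475) or replicate 4 (-1.10, adjusted p 0.0193). The number of genes past both thresholds was 374, against 793 at the adjusted p alone and 191 to 504 when leaving out a library. It was 198 without NC replicate 2 and 0 h p.r. replicate 1 together, 243 with scaling to Csf1r and 230 with scaling to the C1q chains. Same-numbered libraries did not vary together (r from -0.14 to 0.07 over 4 pairs), and a fit with the replicate number as a block gave 212 genes and Cd163 an adjusted p of 0.118.

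Adgre1, Lyz2, Lyve1, C1qa, C1qb and C1qc changed sign in some alternatives, and the causes were not tested. Leaving out a library gave Adgre1 -0.20 to 0.39, Lyz2 -0.026 to 0.47, Lyve1 -0.30 to 0.11, C1qb -0.20 to 0.17 and C1qc -0.33 to 0.055. Scaling to nuclear genes without muscle genes gave Adgre1 -0.0030 and moved the median of all genes to -0.10. Scaling to Csf1r gave Lyve1 0.12, C1qa 0.042, C1qb 0.21 and C1qc 0.13, and scaling to the C1q chains gave C1qb 0.079 and C1qc 0.0057. With Csf1r as a covariate Lyve1 was 0.0080, C1qb 0.15 and C1qc 0.081; with the C1q chains C1qb was 0.082 and C1qc 0.014, and with Ptprc 0.081 and 0.013. Array weights gave C1qb 0.065, and leaving out both named libraries gave C1qb 0.20 and C1qc 0.10. With 4 libraries a group, the intervals of Lyz2 and Adgre1 together reached from -0.72 to 1.14.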
